A study of Homo sapiens with 27 samples.

Results

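Deletion of a candidate SMAD3 enhancer was set against deletion of a candidate LDAH enhancer, gene by gene, in teloHAEC, a line of human aortic endothelial cells immortalised with telomerase. For each gene the quantity tested was the effect of the SMAD3 deletion minus the effect of the LDAH deletion, each taken against its own control on the log2 scale, and it is called the difference of effects. It rests on 19 of the 27 libraries, chosen by their labels. Set A gave 4 libraries of the SMAD3 deletion and 4 of its negative control, and set B gave 4 of the LDAH deletion, which the labels call by the older symbol C2orf43, and 7 of its negative control. In every group Alt-R S.p. HiFi Cas9 V3 was loaded with guide RNA and brought into 150000 cells per replicate with the Neon system, and RNA of the whole edited pool was taken 2 days later. The deletion groups received guides to both flanks of the enhancer, and the negative controls a non-targeting guide with the same Cas9. The other 8 libraries, 4 in each set, received the kit's guide against HPRT and serve as a reference for cutting elsewhere in the genome. The deleted intervals and the share of edited alleles were not analysed here. Nothing in the labels says that replicates came from separate cultures before electroporation, so the p-values reflect only how far these samples spread.

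SMAD3 is a transcription factor that TGF-beta receptors phosphorylate, after which it enters the nucleus with SMAD4 and acts on genes of the matrix, the cytoskeleton and its own inhibitors. LDAH sits on lipid droplets, the stores of neutral lipid that coat proteins cover and lipases empty. An enhancer raises transcription of a gene from a distance, so its loss is read first at that gene and then at the genes downstream of its product. Cas9 cuts both strands of DNA, and such breaks activate p53 in cells that have it, at whatever site they lie.

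QuantSeq 3' FWD libraries, which read the 3' ends of messenger RNA, held 3.43 to 7.49 M (mega) counts. Levels are given as CPM, counts scaled to the size of the library. Of the 20 endothelial markers, 17 had a mean of at least 10 CPM over the 19 libraries. The summed level of all 20 was 2034 to 3099 CPM in the SMAD3 deletion and 2785 to 2893 in control A. In set B it was 1972 to 3214 CPM in the LDAH deletion and 1881 to 3412 in control B. The table holds 0 of 9 epithelial, 2 of 8 smooth muscle, 2 of 9 fibroblast and 3 of 10 leukocyte markers. In such bulk samples fewer cells of a type and less RNA per cell cannot be told apart. Among the 19, SMAD3 deletion replicate 4, LDAH deletion replicate 4 and control B replicates 6 and 7 stood apart from their set, with a lower correlation of expression with its other libraries. Ribosomal protein genes took 16.45% of the counts of SMAD3 deletion replicate 4, against 11.73 to 13.98% in the other libraries of set A. In set B they took 15.27 to 17.32% in the 3 libraries that stood apart and 9.35 to 11.32% in the others. The part of this share in the results was not tested. Values are therefore given with all 19 libraries and without these 4, an alternative chosen after seeing the data. Where 1 value stands alone, its fit is named or is that of all 19. The labels also carry a running number of unstated meaning, 10 to 13 for the SMAD3 deletion and 27 to 33 for control A, 50 to 54 for the LDAH deletion and 56 to 67 for control B. Handling that follows this number cannot be told apart from the deletions, and neither can the deletion from the set it was done in.

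With all 19 libraries no gene passed the test of the difference of effects. Of 11838 genes tested, 0 (0%) had an adjusted p under 0.05 in edgeR's quasi-likelihood test, and 453 (3.83%) had an unadjusted p under 0.05. The SMAD3 effect was the higher in 326 of these (2.75%) and the lower in 127 (1.07%). DESeq2 called 6 genes, limma voom with quality weights 2, and edgeR fits of each set with its own dispersion 8. These 8 rest on a normal approximation that ignores residual degrees of freedom, and in those fits each effect alone called 0 genes. For the HPRT guide, which was the same in both sets, the contrast called 0 of 12055 genes (0%), with 159 (1.32%) at an unadjusted p under 0.05. The SMAD3 effect alone called 0 genes (0%), against 2 by DESeq2 and 10 by limma voom, and had 207 (1.75%) at an unadjusted p under 0.05. The LDAH effect called 2 (0.0169%), MYC and ENSG00000263276, both lower, with 1145 (9.67%) at an unadjusted p under 0.05. Both calls were lost when any 1 of 11 libraries was left out: a control A library, SMAD3 deletion replicate 1, 2 or 3, LDAH deletion replicate 2, or control B replicate 1, 4 or 6. In this fit most of the 453 genes followed the LDAH deletion: 322 had an unadjusted p under 0.05 in the LDAH effect only, 42 in the SMAD3 effect only, 12 in both and 77 in neither. The fit shares its dispersion between the sets, while set A alone had 0.0451 and set B 0.163. With a dispersion for each set, 703 genes had an unadjusted p under 0.05 in the SMAD3 effect and 608 in the LDAH effect. With limma voom these were 1310 and 1324, so the balance of the 2 effects changed with the setting.

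Without the 4 libraries, 50 of 11881 genes (0.421%) passed the test of the difference, and 1040 (8.75%) had an unadjusted p under 0.05, 743 (6.25%) of them above 0 and 297 (2.5%) below. In 49 of the 50 (0.412%) the SMAD3 effect was the higher, and in all 49 the LDAH effect was below 0. Of the 50, 49 were called in the LDAH effect alone as well, where 559 genes (4.7%) passed, 474 lower (3.99%) and 85 higher (0.715%). The SMAD3 effect alone again called 0 genes (0%), against 10 by DESeq2 and 76 by limma voom, and had 525 (4.42%) at an unadjusted p under 0.05. With a dispersion for each set, 1167 genes had an unadjusted p under 0.05 in the SMAD3 effect and 1523 in the LDAH effect, and with limma voom 1494 and 1383. The median SMAD3 effect over the 49 genes was 0.08, from -0.33 to 0.88, and the median LDAH effect was -1.45. All 49 had a difference above 0 with all 19 libraries as well, where 30 had an unadjusted p under 0.05 and none passed. With 1 further library left out, 7 to 50 of the 50 genes were called, the fewest without SMAD3 deletion replicate 3 or control A replicate 2 or 3. With the HPRT-targeted libraries as controls, of which 2 remained in set B, 6 of the 50 were called. In that fit all 50 kept their direction and 49 had an unadjusted p under 0.05. The 7 genes called whichever library was left out were ENSG00000263276, KLF2, PPP4C, RAP2A, CRTC2, CHST14 and CD9. Of these CRTC2 had a mean of only 4.8 CPM and an effect of -2.76 in the HPRT-targeted libraries of set B. It was called in 4 of 6 fits that differed in tool, size factors, dispersion or controls.

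**Figure D1:**
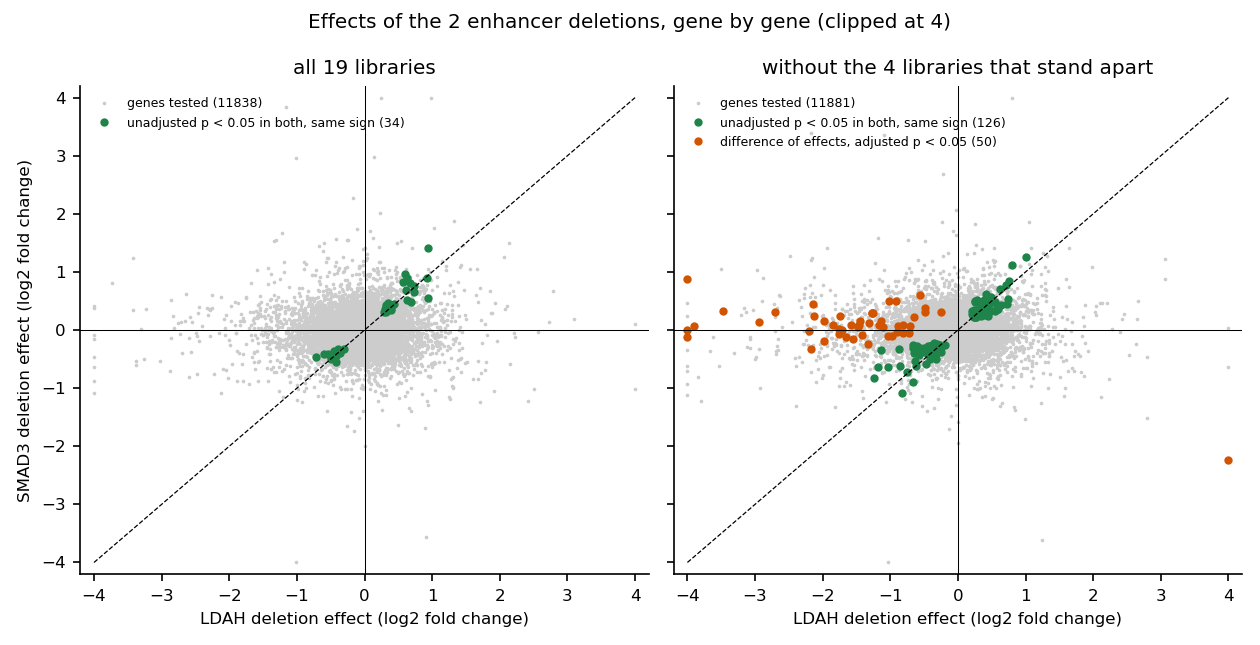
Log2 fold change of each gene in the LDAH deletion (x axis) and in the SMAD3 deletion (y axis), each against its own control and clipped at 4, with all 19 libraries (left) and without the 4 that stand apart (right); the dashed line marks equal effects. The 50 orange genes, which passed the test of the difference, lie near 0 on the SMAD3 axis and, but for 1, left of 0 on the LDAH axis, and the green genes, 34 and 126, have an unadjusted p under 0.05 and the same sign in both.

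The promoters of 35 of the 49 genes were matched by symbol in a RefSeq table (GRCh38.p14) of 250 bases before to 50 after each gene's start. They are printed for 3 genes that stand for the signalling, surface and actin genes described next: KLF2, a transcription factor induced by laminar flow, EPHA2, an ephrin receptor tyrosine kinase, and PFN1, profilin, which binds actin monomers. Capitals mark matches on either strand to GGAATG (the core of TEAD sites), TGANTCA (AP-1) or CAGACA (a SMAD element), none of which overlapped another.
KLF2, chr19:16324576-16324875, plus strand: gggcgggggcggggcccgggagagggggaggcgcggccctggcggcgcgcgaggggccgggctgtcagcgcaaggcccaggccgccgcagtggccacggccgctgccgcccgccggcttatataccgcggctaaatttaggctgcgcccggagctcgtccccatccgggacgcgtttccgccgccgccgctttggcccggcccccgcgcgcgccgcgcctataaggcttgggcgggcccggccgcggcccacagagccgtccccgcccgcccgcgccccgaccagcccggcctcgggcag
EPHA2, chr1:16156020-16156319, minus strand: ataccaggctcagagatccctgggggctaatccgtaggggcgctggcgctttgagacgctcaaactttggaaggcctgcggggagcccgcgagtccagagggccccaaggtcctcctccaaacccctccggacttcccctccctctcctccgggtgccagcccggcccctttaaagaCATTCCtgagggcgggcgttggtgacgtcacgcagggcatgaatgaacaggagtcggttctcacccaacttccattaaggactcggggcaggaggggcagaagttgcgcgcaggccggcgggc
PFN1, chr17:4948481-4948780, minus strand: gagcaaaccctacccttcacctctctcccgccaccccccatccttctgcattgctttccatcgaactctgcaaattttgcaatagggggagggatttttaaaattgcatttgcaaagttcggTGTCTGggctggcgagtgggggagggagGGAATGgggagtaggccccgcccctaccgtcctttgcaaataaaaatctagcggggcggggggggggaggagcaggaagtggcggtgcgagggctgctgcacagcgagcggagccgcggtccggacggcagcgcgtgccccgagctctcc

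In these windows KLF2 had no match, EPHA2 had the TEAD core and PFN1 had the TEAD core and the SMAD element. Of the 35 promoters, GGAATG was in 5, against 10.7% of the 9549 promoters of tested genes. CAGACA was in 9 of the 35, against 11.8%, and TGANTCA in 2, against 4.37%. A match describes letters in the window only. The 49 genes lay on 19 chromosomes and 45 were protein coding, and the last 300 bases of their transcripts had a median GC content of 42.7%, against 39.0% for all genes tested.

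For the target genes themselves the difference of effects did not exceed the spread between libraries. SMAD3, on chromosome 15, was at 106, 111, 104 and 75.7 CPM in the SMAD3 deletion and 134, 144, 122 and 141 CPM in control A. It was at 118, 112, 139.9 and 95.5 CPM in the LDAH deletion and 69.3 to 144 CPM with a median of 121 in control B. Every SMAD3 deletion library was below every library of control A, though the share of all genes so separated in set A was not counted. The groups of set B overlapped. On log2 CPM the SMAD3 deletion had an effect of -0.46 and the LDAH deletion of 0.02, a difference of -0.48, with a two-sided exact permutation p of 0.107 over 23100 arrangements within sets, of which the smallest possible is 4.33e-05. Without the 4 libraries the difference was -0.23 (exact permutation p = 0.214). LDAH, on chromosome 2, was at 10.7, 8.56, 6.67 and 2.70 CPM in the LDAH deletion and 7.76 to 18.2 CPM with a median of 11.4 in control B. It was at 12.1, 11.1, 11.8 and 15.1 CPM in the SMAD3 deletion and 11.5, 14.9, 11.4 and 18 CPM in control A, and both pairs of groups overlapped. For LDAH the SMAD3 deletion had an effect of -0.14 and the LDAH deletion of -0.84, a difference of 0.70 (exact permutation p = 0.135), and 0.26 without the 4 libraries (exact permutation p = 0.527). LDAH deletion replicate 4 had the lowest LDAH level of the 19 libraries and SMAD3 deletion replicate 4 the lowest SMAD3 level of its group, and both are among the libraries left out. HPRT1, the target of the reference guide, had a difference of effects of 0.38 ± 0.44 (log2 ± SE), or 0.14 ± 0.25 without the 4.

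The 49 genes were chosen by a test fitted on LDAH deletion replicates 1 to 3 and control B replicates 1 to 5, so their low levels in these 3 libraries restate the choice and are given as a description. Their median log2 ratio to the mean of control B was -1.02, -1.25 and -1.76 in these 3 libraries and -0.06 in replicate 4, which was left out of the fit. In replicates 1 to 3, 48, 49 and 49 of the 49 genes were below every control library of the fit, against 18.8, 21.5 and 24.7% of all genes. In replicate 4, 18 of the 49 were, against 34.8% of all genes. The SMAD3 deletion libraries had medians of 0.05, 0.02, 0.19 and 0.13, and the left-out control B replicates 6 and 7 had 0.35 each. In the HPRT-targeted libraries, which share the controls, the same genes had median effects of -0.01 (set A) and -0.19 (set B).

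**Figure D2:**
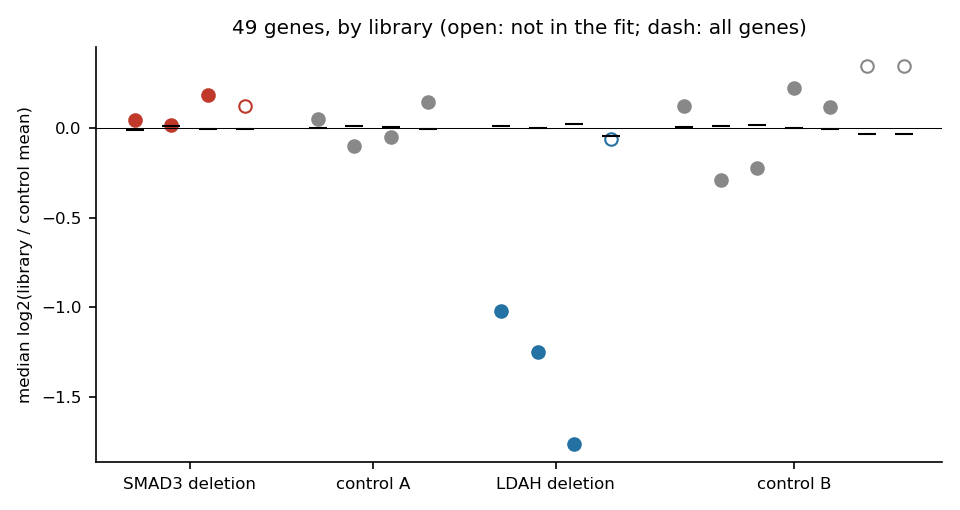
Median over the 49 genes of the log2 ratio of a library to the mean of its control (y axis), 1 point per library in 4 groups (x axis); open points are libraries left out of the fit and dashes the median over all genes. LDAH deletion replicates 1 to 3 lie at -1.02, -1.25 and -1.76, and replicate 4 at -0.06. The SMAD3 deletion libraries lie at 0.02 to 0.19, and the left-out control B replicates 6 and 7 at 0.35 each.

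Among transcription factors, KLF2 and MYC were low in the LDAH deletion and near their control in the SMAD3 deletion. KLF2 was at 15, 17, 11.7 and 44.7 CPM in the LDAH deletion and 37.7 to 82.4 CPM with a median of 58.9 in control B. It was at 43.9, 53, 52.1 and 50.3 CPM in the SMAD3 deletion and 41.9, 46, 45.6 and 36 CPM in control A. LDAH deletion replicates 1 to 3 were below all other libraries, replicate 4 was within the range of its control, and the groups of set A overlapped. The difference of effects of KLF2 was 1.73 ± 0.42 (edgeR adjusted p = 0.647) with all 19 libraries and 2.38 ± 0.29 (adjusted p = 0.000115) without the 4, where its LDAH effect was -2.13 ± 0.22 and its SMAD3 effect 0.25 ± 0.20. Limma voom with sample quality weights called it with all 19. MYC, which drives growth and ribosome genes, was at 7.34, 14.5, 8.17 and 18 CPM in the LDAH deletion and 24.8 to 44.5 CPM with a median of 29.1 in control B. In set A it was at 28.8, 31.4, 31.4 and 25.2 CPM in the SMAD3 deletion and 34.5, 31.3, 32.5 and 36.1 CPM in control A. All 4 LDAH deletion libraries were below all 7 controls, as they were for 81 genes (0.684%; 653 or 5.54% without the 4 libraries), and the groups of set A overlapped. The share of all genes without overlap was not counted for set A or for the LDAH deletion above control B. A lack of overlap there only describes the libraries. The LDAH effect of MYC was -1.38 ± 0.22 with all 19 libraries and passed (edgeR adjusted p = 0.0302), but its difference of effects, 1.18 ± 0.32, did not (adjusted p = 0.891), and passed without the 4 (1.54 ± 0.30, adjusted p = 0.0212).

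Surface receptors and a secreted regulator followed. EPHA2 was at 20.4, 16.2, 15.3 and 46.5 CPM in the LDAH deletion and 28.2 to 66.4 CPM with a median of 44 in control B, and at 80.8, 69.1, 85.2 and 75.1 CPM in the SMAD3 deletion and 91, 59.5, 69.1 and 80.2 CPM in control A. Replicates 1 to 3 of the LDAH deletion were below control B, replicate 4 was inside its range, and the groups of set A overlapped. Its difference was 1.03 ± 0.43 (edgeR adjusted p = 0.999), and 1.66 ± 0.32 without the 4 libraries (adjusted p = 0.0212). TNFRSF12A, the receptor of the cytokine TWEAK, was at 26.4, 30.9, 20.5 and 49.8 CPM in the LDAH deletion, all below the 52.3 to 97.2 CPM of control B. In set A its SMAD3 deletion libraries, at 82.4 to 91.6 CPM, overlapped control A, at 84.8 to 105 CPM, and the difference was 0.99 ± 0.32 (adjusted p = 0.999), or 1.34 ± 0.26 without the 4 (adjusted p = 0.0212). CD9, a tetraspanin of the plasma membrane, was at 89.6, 72.4, 32.7 and 400.5 CPM in the LDAH deletion and 177 to 619 CPM with a median of 327 in control B, with replicate 4 alone inside the control range. In set A CD9 was at 897, 659, 858 and 1270.3 CPM in the SMAD3 deletion and 1265, 914, 985 and 937 CPM in control A, which overlapped through the left-out SMAD3 deletion replicate 4. Its difference was 1.09 ± 0.68 with all 19 libraries and 1.84 ± 0.32 without the 4 (adjusted p = 0.0113). CCN1, a matricellular protein and a textbook target of YAP and TEAD, was at 70.2, 65.4, 30.3 and 82.6 CPM in the LDAH deletion, all below the 95 to 136 CPM of control B, and at 206 to 316 against 244 to 326 CPM in set A, which overlapped. Its difference was 0.82 ± 0.30 (adjusted p = 0.999), or 1.16 ± 0.25 without the 4 libraries (adjusted p = 0.0378). VEGFC, a growth factor of lymphatic vessels, and CDH5, the cadherin of endothelial junctions, had differences of 2.14 ± 0.49 and 0.89 ± 0.19 without the 4 (adjusted p = 0.0489 and 0.0332), and 1.25 ± 0.73 and 0.57 ± 0.39 with all 19.

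Genes of the actin cytoskeleton and of cell metabolism were also among the 49. MYL12B, a regulatory light chain of non-muscle myosin, was at 307, 279, 213 and 579.7 CPM in the LDAH deletion and 446 to 761 CPM with a median of 504 in control B, and at 696 to 866 against 693 to 794 CPM in set A. Its difference was 0.66 ± 0.31 with all 19 libraries (edgeR adjusted p = 0.999) and 0.86 ± 0.16 without the 4 (adjusted p = 0.0153). ACTN4, which cross-links actin, and PFN1 had differences of 0.87 ± 0.17 and 1.54 ± 0.33 without the 4 libraries (adjusted p = 0.0212 and 0.0354), and 0.29 ± 0.80 and 0.97 ± 0.49 with all 19. RAP2A, a small GTPase, was at 41.1, 27.3, 29.5 and 107 CPM in the LDAH deletion and 59.3 to 137 CPM with a median of 79.2 in control B, and its difference without the 4 was 1.28 ± 0.21 (adjusted p = 0.00954), against 0.94 ± 0.46 with all 19. CHST14, which sulfates dermatan chains, was at 12.9, 9.53, 5.50 and 22.2 CPM in the LDAH deletion and 10.6 to 40.7 CPM with a median of 27.3 in control B, with a difference of 1.70 ± 0.30 without the 4 (adjusted p = 0.0113) and 1.12 ± 0.45 with all 19. For both genes replicate 4 was the highest library of the LDAH deletion. PPP4C, the catalytic subunit of protein phosphatase 4, was at 4.72, 4.68, 0.50 and 51 CPM in the LDAH deletion and 19.2 to 64.9 CPM with a median of 43.1 in control B, so that replicates 1 to 3 lay far below replicate 4. Its difference was 2.02 ± 0.96 with all 19 libraries (adjusted p = 0.999) and 3.80 ± 0.55 without the 4 (adjusted p = 0.0013). TXN, thioredoxin, which keeps protein thiols reduced, was at 168, 148, 122 and 347 CPM in the LDAH deletion and 265 to 615 CPM with a median of 387 in control B, and its difference was 0.99 ± 0.38 with all 19 and 1.09 ± 0.21 without the 4 (adjusted p = 0.0212).

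ENSG00000263276, an RNA at 68224713 to 68227734 on chromosome 16 (hg38), lies within NFATC3 on the same strand, so reads of the 2 could be split between them and its level is uncertain. It had 0 counts in LDAH deletion replicates 1, 2 and 3 and 19 counts, or 5.70 CPM, in replicate 4, against 16.5 to 34.9 CPM with a median of 18.4 in control B. In set A it was at 50.8 to 60.8 CPM in the SMAD3 deletion and 59.9 to 62.3 CPM in control A, which overlapped. Every LDAH deletion library was below every control B library. The HPRT-targeted libraries of set B, which lack the deletion, ran from 0 to 25.1 CPM with a median of 8.24 CPM. Their effect against control B was -1.08, and their median was 18.6 CPM without the libraries that stand apart. A level of 0 was therefore not confined to the LDAH deletion. With the 3 counts per library that a count of 0 allows, the level in replicates 1 to 3 was at least 41.3-fold lower than the mean of control B replicates 1 to 5. The fitted LDAH effect, which is no bound, was -4.42 ± 0.71 with all 19 libraries (edgeR adjusted p = 0.0302), and the difference of effects passed without the 4 (adjusted p = 7.66e-09) but not with all 19 (adjusted p = 0.507).

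In some genes the effects had opposite signs, above 0 after the SMAD3 deletion and below 0 after the LDAH deletion. DNAJA2, a co-chaperone of HSP70, was at 75.8, 74.9, 82.5 and 92.6 CPM in the SMAD3 deletion and 55.3, 65, 65.4 and 57.8 CPM in control A, and at 76.4, 61.4, 56 and 60.6 CPM in the LDAH deletion and 82.2 to 114 CPM with a median of 89.6 in control B. Neither pair of groups overlapped. Its difference was 0.95 ± 0.19 with all 19 (edgeR adjusted p = 0.507; DESeq2 adjusted p = 0.00374) and 0.85 ± 0.18 without the 4 (edgeR adjusted p = 0.0328). RNF130, a ubiquitin ligase, was at 25.3, 32.5, 29 and 39.5 CPM in the SMAD3 deletion and 26.8, 17.4, 23.3 and 28.6 CPM in control A, and at 14.7, 10.5, 11.7 and 18.6 CPM in the LDAH deletion and 21.1 to 53.6 CPM with a median of 33.5 in control B. Only the groups of set B were free of overlap. Its difference was 1.70 ± 0.36 with all 19 (edgeR adjusted p = 0.507; DESeq2 adjusted p = 0.0221) and 1.55 ± 0.30 without the 4 (edgeR adjusted p = 0.0212). CCNE2, cyclin E2 of the entry into S phase, had a SMAD3 effect of 0.49 ± 0.25 and an LDAH effect of -1.01 ± 0.24 without the 4 libraries, a difference of 1.51 ± 0.35 (adjusted p = 0.0492), against 1.31 ± 0.35 with all 19 (adjusted p = 0.891).

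**Figure D3:**
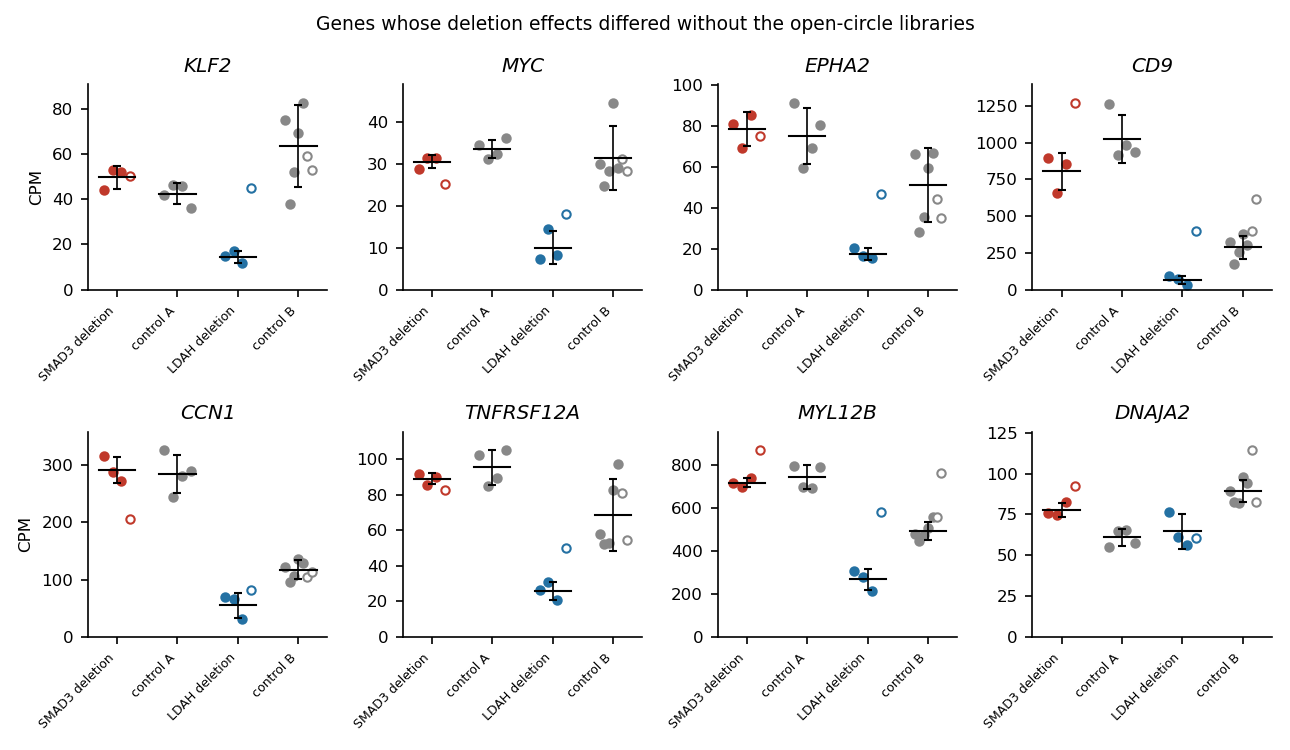
CPM per library (y axis, from 0) of 8 genes that passed the test of the difference without the libraries drawn as open circles, in 4 groups (x axis); lines and bars are the mean ± SD of the filled points. In KLF2, EPHA2 and CD9 the open LDAH deletion point, at 44.7, 46.5 and 400.5 CPM, lies within the range of control B, and in MYC, at 18.0 CPM, it lies below.

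Where the SMAD3 effect was the lower, AC011043.1 was the 1 gene that passed without the 4 libraries (0.00842%). It lies on an unplaced scaffold and had 61 and 68 counts in LDAH deletion replicates 2 and 3, and 0 in replicates 1 and 4 and in every control B library. NCBP2AS2, named for its place beside NCBP2, was at 53.1, 52, 54.4 and 45.6 CPM in the LDAH deletion, all above the 32 to 39.2 CPM of control B, and at 62, 50.5, 48.6 and 48 CPM in the SMAD3 deletion and 69.1, 66.8, 55 and 60.1 CPM in control A, which overlapped. Its difference was -0.77 ± 0.18 with all 19 libraries (edgeR adjusted p = 0.645; DESeq2 adjusted p = 0.0494) and -0.77 ± 0.19 without the 4 (edgeR adjusted p = 0.0729). PGF, placental growth factor, a ligand of VEGFR1, was at 62.9, 53.3, 75.7 and 68.4 CPM in the LDAH deletion and 32.8 to 59.3 CPM with a median of 40.8 in control B, and at 40.4, 26.4, 25.3 and 35.8 CPM in the SMAD3 deletion and 34.3, 35.8, 41.5 and 39.2 CPM in control A. Both pairs overlapped, and the difference was -0.80 ± 0.25 (adjusted p = 0.999), or -0.88 ± 0.24 without the 4 (adjusted p = 0.142). MSTO1, which acts in mitochondrial fusion, had -0.78 ± 0.21, and POMGNT2 and ALG3, enzymes of protein glycosylation, had -1.17 ± 0.33 and -0.59 ± 0.16 with all 19 libraries (edgeR adjusted p = 0.891 for each). They were -0.75 ± 0.25, -1.22 ± 0.33 and -0.48 ± 0.17 without the 4, and none passed. TGFB1I1, or HIC-5, a focal adhesion protein named for its induction by TGF-beta, had a SMAD3 effect of -0.38 ± 0.10 and an LDAH effect of 0.16 ± 0.10 without the 4, and the difference, -0.54 ± 0.14, did not pass (adjusted p = 0.103), nor did it with all 19 (-0.72 ± 0.37).

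Changes that the deletions had in common were counted as genes with an unadjusted p under 0.05 and the same sign in both effects, which share no library. With all 19 libraries there were 34 (0.287%), 22 higher in both (0.186%) and 12 lower in both (0.101%), and 12 more had opposite signs. The 34 are 16.4% of the genes at that threshold in the SMAD3 effect and 2.97% of those in the LDAH effect. Without the 4 libraries there were 126 (1.06%), 72 higher (0.606%) and 54 lower (0.455%), which is 24.0% of the SMAD3 genes and 5.73% of the LDAH genes, and 23 had opposite signs. Across all genes tested the sign was the same in both effects for 50.4% with all 19 and 57.3% without the 4. Pearson's r between the effects was 0.03 and 0.08, over 11838 and 11881 genes, and Spearman's rank correlation was 0.03 and 0.16. Of the 474 genes called lower in the LDAH deletion without the 4 libraries, 323 (68.1%) had a SMAD3 effect below 0, against 48.2% of all genes. In the SMAD3 deletion 18 of the 474 (3.80%) were lower at an unadjusted p under 0.05, against 1.5% of all genes. Of the 85 genes called higher in the LDAH deletion, 68 (80.0%) had a SMAD3 effect above 0, against 51.8% of all genes, and 17 (20%) were higher at an unadjusted p under 0.05, against 2.92%. The average of the 2 effects called 1 gene with all 19 libraries (0.00845%; 759 unadjusted, 6.41%), MTRNR2L8, and none in 16 of the 19 fits that left out 1 library, and 278 without the 4 (2.34%; 1865 unadjusted, 15.7%), 62 higher (0.522%) and 216 lower (1.82%). A gene that moved in a single deletion can pass the average too: 81 of the 278 reached an unadjusted p under 0.05 with the same sign in both, and 163 had an unadjusted p under 0.05 for the difference.

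MDM2, the ubiquitin ligase that p53 induces and that degrades it, was among the genes higher in both. It was at 236, 197, 167 and 224 CPM in the SMAD3 deletion and 195, 133, 123 and 141 CPM in control A, which overlapped, and at 294, 210.1, 244 and 241 CPM in the LDAH deletion, all above the 123 to 206 CPM of control B. The SMAD3 effect was 0.48 ± 0.18 and the LDAH effect 0.68 ± 0.16 (edgeR unadjusted p = 0.0165 and 0.000364), and their difference of -0.20 had a 95% interval of -0.71 to 0.30. The effects were 0.45 ± 0.17 and 0.72 ± 0.16 without the 4 libraries, where the LDAH effect passed (adjusted p = 0.00884). In the HPRT-targeted libraries, against the same controls, the values of MDM2 were 0.40 ± 0.17 (set A) and 0.64 ± 0.15 (set B). HOMER3, a scaffold protein, was at 67.8, 73, 59.8 and 71.5 CPM in the SMAD3 deletion and 46.5, 52.5, 55.8 and 54.5 CPM in control A, and at 108, 117, 137 and 104 CPM in the LDAH deletion and 74.4 to 99.1 CPM with a median of 86.4 in control B. Neither pair overlapped. Its effects were 0.38 ± 0.13 and 0.39 ± 0.12, with a difference of -0.01 and a 95% interval of -0.39 to 0.36 (0.37 ± 0.13 and 0.37 ± 0.12 without the 4), beside 0.06 and 0.01 in the HPRT-targeted libraries. CD70, a ligand of the TNF family, was at 142, 150.1, 147 and 217 CPM in the SMAD3 deletion, all above the 95.5 to 108 CPM of control A, and at 257, 249, 279.6 and 295 CPM in the LDAH deletion and 175 to 315 CPM with a median of 217 in control B. The groups of set B overlapped through the left-out control B replicates 6 and 7, and without the 4 libraries the effects were 0.52 ± 0.11 and 0.38 ± 0.10, with a 95% interval of the difference of -0.18 to 0.45. With all 19 they were 0.66 ± 0.18 and 0.26 ± 0.16, and the interval was -0.11 to 0.91. ASCC3, a helicase that acts on alkylated DNA and stalled ribosomes, was at 125, 121, 138 and 97.3 CPM in the SMAD3 deletion and 81.6 to 103 CPM in control A, and at 163, 152, 151 and 94.6 CPM in the LDAH deletion and 72.3 to 141 CPM with a median of 108 in control B. Replicate 4 of each deletion was inside the range of its control, and without the 4 libraries the effects were 0.46 ± 0.12 and 0.38 ± 0.11, with a 95% interval of the difference of -0.25 to 0.41. With all 19 they were 0.35 ± 0.20 and 0.38 ± 0.17.

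MTRNR2L8, a nuclear copy of the mitochondrial 16S RNA gene with near-identical copies elsewhere, passed the test of the average, and its reads may come from the copies. It was at 1363, 1008, 1027 and 1675 CPM in the SMAD3 deletion and 590.0, 564, 469 and 289.8 CPM in control A, with no overlap, and at 8222, 3246, 6124 and 3402 CPM in the LDAH deletion and 2095 to 3770.2 CPM with a median of 2669.5 in control B, which overlapped. The average effect was 1.17 ± 0.19 (edgeR adjusted p = 0.049), and the difference, 0.47, had a 95% interval of -0.31 to 1.25. The average was 1.14 ± 0.15 without the 4 libraries (adjusted p = 0.00042) and the difference 0.25 (95% interval -0.39 to 0.90).

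Among the genes lower in both, COX6C, a subunit of cytochrome c oxidase, was at 424, 444, 420.2 and 383 CPM in the SMAD3 deletion and 575, 556, 574 and 585 CPM in control A, with no overlap. In set B it was at 195, 197, 137 and 244 CPM in the LDAH deletion and 182 to 298 CPM with a median of 267 in control B, where the overlap came from the left-out libraries. The effects were -0.46 ± 0.16 and -0.42 ± 0.14 (edgeR unadjusted p = 0.01 and 0.00832), and their difference of -0.03 had a 95% interval of -0.48 to 0.41. Leaving out the 4 libraries gave -0.40 ± 0.11 and -0.65 ± 0.11, the LDAH effect passed (adjusted p = 0.00089), and the difference turned to 0.25 (95% interval -0.06 to 0.56). PTGR1, which reduces prostaglandins and leukotrienes, was at 169, 179, 167 and 134 CPM in the SMAD3 deletion and 217, 202, 226 and 218 CPM in control A, and at 115, 99.5, 76.2 and 109 CPM in the LDAH deletion and 126 to 186 CPM with a median of 148 in control B. Neither pair overlapped. The effects were -0.41 ± 0.15 and -0.60 ± 0.13, and the 95% interval of their difference, 0.19, was -0.22 to 0.60. The effects without the 4 libraries were -0.31 ± 0.13 and -0.66 ± 0.13, the LDAH effect passed (adjusted p = 0.00277), and the interval of the difference, 0.35, was -0.02 to 0.72. EWSR1, an RNA-binding protein, had effects of -0.46 ± 0.19 and -0.71 ± 0.17, and SLC3A2, the heavy chain of several amino acid transporters, -0.33 ± 0.13 and -0.39 ± 0.12, both at an unadjusted p under 0.05 in each deletion. MELK, a mitotic kinase, had -0.39 ± 0.15 and -0.42 ± 0.14, and SPC24, of the kinetochore, -0.54 ± 0.18 and -0.42 ± 0.17, at the same threshold. EWSR1, SLC3A2, MELK and SPC24 kept an unadjusted p under 0.05 in each deletion without the 4 libraries, and the difference of EWSR1 went from 0.25 ± 0.25 to 0.54 ± 0.21 without passing (adjusted p = 0.418). PHGDH, the enzyme that opens serine synthesis, had -1.08 ± 0.30 and -0.83 ± 0.29 without the 4 libraries, and TFRC, the transferrin receptor, -0.61 ± 0.20 and -0.86 ± 0.20. With all 19 they had -0.82 ± 0.39 and -0.88 ± 0.36, and -0.88 ± 0.43 and -0.66 ± 0.39.

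**Figure D4:**
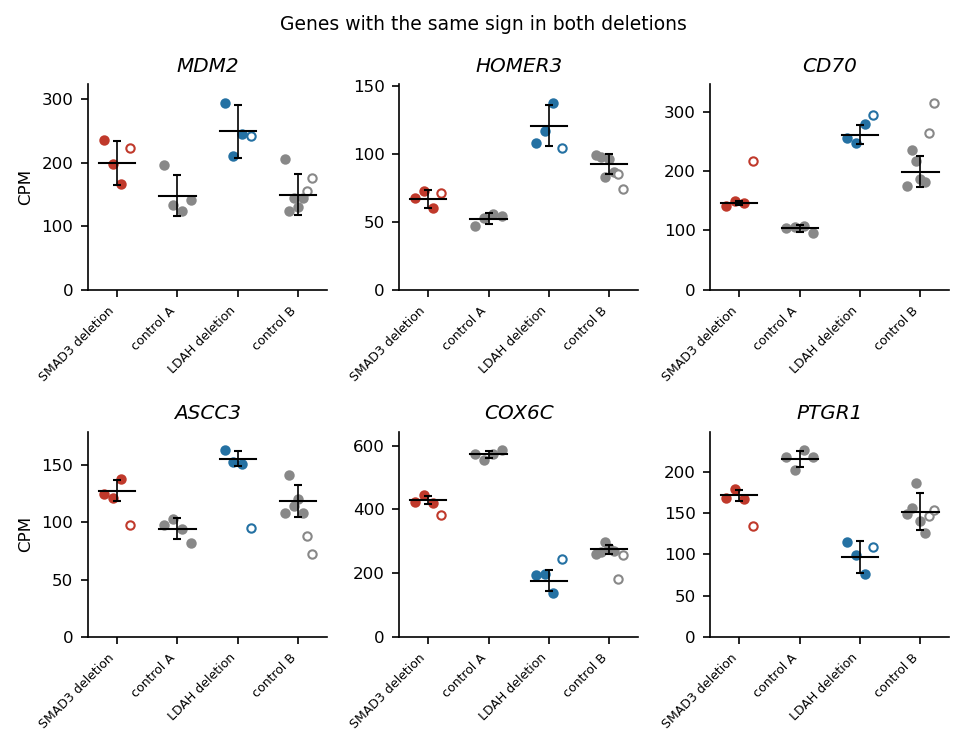
CPM per library (y axis, from 0) of 6 genes with the same sign in both deletions, in 4 groups (x axis); open circles are libraries that stand apart, and lines and bars are the mean ± SD of the filled points. HOMER3 is above its control in both deletions without overlap, and PTGR1 is below its control in both.

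Gene lists are described by median log2 effects, with all 19 libraries unless stated, beside medians over all genes of -0.01 in the SMAD3 deletion and 0.02 in the LDAH deletion. The shares of all genes called without the 4 libraries, against which the calls below are set, were 0.715% higher and 3.99% lower for the LDAH effect and 0.421% for the difference. The 38 p53 targets had medians of 0.24 (SMAD3 deletion) and 0.22 (LDAH deletion), and 24 were above 0 in both and 0 below 0 in both. In the HPRT-targeted libraries, which share the controls, their medians were 0.19 and 0.23. The medians were 0.22 and 0.13 without the 4 libraries, and 2 of the 38, MDM2 and ASCC3, were called higher in the LDAH deletion. None of the 38 passed the difference, and CDKN1A, which encodes p21 and halts the cell cycle, had effects of 0.44 ± 0.26 and 0.54 ± 0.23, and FAS, a death receptor, 0.81 ± 0.34 and 0.41 ± 0.30. The 38 proliferation genes had medians of -0.29 and -0.06, with 36 below 0 in the SMAD3 deletion, 22 in the LDAH deletion and 20 in both, and medians of -0.19 in the HPRT-targeted libraries of each set. PCNA, the clamp of DNA polymerases, had effects of -0.03 ± 0.17 and -0.65 ± 0.16. Without the 4 libraries the medians were -0.17 and -0.04, 3 of the 38 were called lower in the LDAH deletion (against 3.99% of all genes), PCNA and CCNE2 among them, and CCNE2 passed the difference (against 0.421%).

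The 33 TGF-beta and SMAD3 targets were divided, 14 above and 19 below 0 in the SMAD3 deletion and 16 above and 17 below in the LDAH deletion, with medians of -0.09 and -0.01. With the 4 left out, the SMAD3 deletion turned, with 18 above and 15 below 0 and a median of 0.02, and the LDAH median was -0.03. In that fit the list held 0 genes called in the SMAD3 deletion, 5 called lower in the LDAH deletion (against 3.99% of all genes) and 1, CCN1, that passed the difference (against 0.421%). SNAI1, a transcription factor of mesenchymal transition, had effects of -0.37 ± 0.35 (SMAD3 deletion) and -1.59 ± 0.35 (LDAH deletion), and its difference did not pass (edgeR adjusted p = 0.999; 0.147 without the 4). Of the 29 components of the TGF-beta and BMP pathways, 20 were above 0 in the SMAD3 deletion and 16 in the LDAH deletion (19 and 17 without the 4), and none passed the difference in either fit. SMAD7, the inhibitory SMAD, had effects of 0.09 ± 0.60 and -1.91 ± 0.59, ACVR1, a BMP receptor, -0.21 ± 0.30 and -0.79 ± 0.28, and ACVRL1, the endothelial receptor of BMP9, 0.11 ± 0.15 and 0.43 ± 0.13. The LDAH effect passed without the 4 libraries for ACVR1 (-0.996 ± 0.27, adjusted p = 0.0306) and ACVRL1 (0.44 ± 0.13, adjusted p = 0.0455), and the SMAD3 effect of SMAD7 turned to -0.16 ± 0.65. The 25 lipid droplet and lipase genes, the list nearest to LDAH, had medians of 0.04 and 0.10 (0.01 and 0.10 without the 4), and none passed the difference in either fit. With the 4 left out 1 of the 25 was called lower in the LDAH deletion (against 3.99% of all genes): G0S2, an inhibitor of the main droplet lipase, had -1.84 ± 0.54 (adjusted p = 0.048), against -0.97 ± 0.56 with all 19. LIPG, endothelial lipase, had effects of 0.11 ± 0.19 and -0.50 ± 0.17, and PLIN3, a droplet coat protein, 0.04 ± 0.12 and 0.34 ± 0.10. The LDAH effect of LIPG was -0.30 ± 0.16 without the 4. Of the 25 cholesterol genes 19 were below 0 in the LDAH deletion, with a median of -0.18, and 12 in the SMAD3 deletion, with a median of 0.00. Of the same genes 17 and 15 were below 0 without the 4 libraries, with medians of -0.12 (LDAH deletion) and -0.04 (SMAD3 deletion), and 2 were called lower in the LDAH deletion, SREBF1 among them. SREBF1, a regulator of lipid synthesis, had effects of -0.06 ± 0.28 and -0.86 ± 0.26, and its difference did not pass (adjusted p = 0.999; 0.072 without the 4).

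The 24 genes of the integrated stress and unfolded protein responses had medians of -0.05 in the SMAD3 deletion and -0.21 in the LDAH deletion. With those 4 left out, the medians were -0.11 and -0.34, 4 genes were called lower in the LDAH deletion (against 3.99% of all genes), and MANF, secreted under stress of the endoplasmic reticulum, was the 1 that passed the difference (0.94 ± 0.21, edgeR adjusted p = 0.0454; 0.421% of all genes passed). With all 19 the difference of MANF was 0.58 ± 0.31. Of 16 NF-kB and inflammatory genes 11 were below 0 in the LDAH deletion and 10 in the SMAD3 deletion, with medians of -0.21 and -0.14. Leaving out the 4 turned the SMAD3 deletion, with 9 above and 7 below 0 and a median of 0.01, while 10 were below 0 in the LDAH deletion, with a median of -0.15. CXCL8, a neutrophil chemokine, had effects of -1.70 ± 0.44 in the LDAH deletion and 0.04 ± 0.46 in the SMAD3 deletion, and its LDAH effect passed without the 4 (-1.39 ± 0.38, adjusted p = 0.035). The 27 interferon-stimulated genes had medians of 0.17 and 0.26, with 15 above 0 in both. Leaving out the 4 gave medians of 0.11 and 0.08. The 20 endothelial markers went both ways, with 9 above and 11 below 0 in each effect without the 4 libraries. Of them 1 was called higher and 2 lower in the LDAH deletion (against 0.715% and 3.99% of all genes), CDH5 among the lower, and CDH5 was the 1 that passed the difference (against 0.421%).

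The mitochondrially encoded genes had medians of -0.10 in the SMAD3 deletion and 0.25 in the LDAH deletion, and a median difference of -0.53, against -0.01 over all genes. Of the 13 genes, 13 were above 0 in the LDAH deletion and 11 had a difference below 0, 3 of them at an unadjusted p under 0.05 (1.07% of all genes), and none passed. Without the 4 libraries the medians were -0.32 and 0.28, and all 13 differences were below 0, 10 of them at an unadjusted p under 0.05 (2.5% of all genes), and again no difference passed. In that fit 3 of the 13 were called higher in the LDAH deletion (against 0.715% of all genes). In the SMAD3 deletion 0 were called, and 7 were lower at an unadjusted p under 0.05 (against 1.5% of all genes). MT-ND4, a subunit of complex I, was at 1787, 2119, 2498 and 1806 CPM in the SMAD3 deletion, all below the 2518, 3182, 2787 and 3585 CPM of control A, and at 1611, 1069.6, 1582 and 701 CPM in the LDAH deletion and 583 to 1395 CPM with a median of 837 in control B, which overlapped. Its difference was -0.93 ± 0.37 (edgeR adjusted p = 0.999), or -0.83 ± 0.24 without the 4 (adjusted p = 0.154). MT-CO3, a subunit of cytochrome c oxidase, was at 1995, 2110.0, 2162 and 3006 CPM in the SMAD3 deletion and 2582, 3003, 2734 and 2727 CPM in control A, where the left-out replicate 4 made the overlap, and its difference was -0.54 ± 0.25 (adjusted p = 0.999), or -0.64 ± 0.18 without the 4 (adjusted p = 0.152). In the HPRT-targeted libraries the medians of the list were 0.03 and -0.07. These genes took 1.77 to 2.42% of the counts in the SMAD3 deletion, 2.08 to 2.55% in control A, 1.18 to 1.98% in the LDAH deletion and 0.998 to 1.77% in control B, and the part of RNA quality in the difference was not tested.

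**Figure D5:**
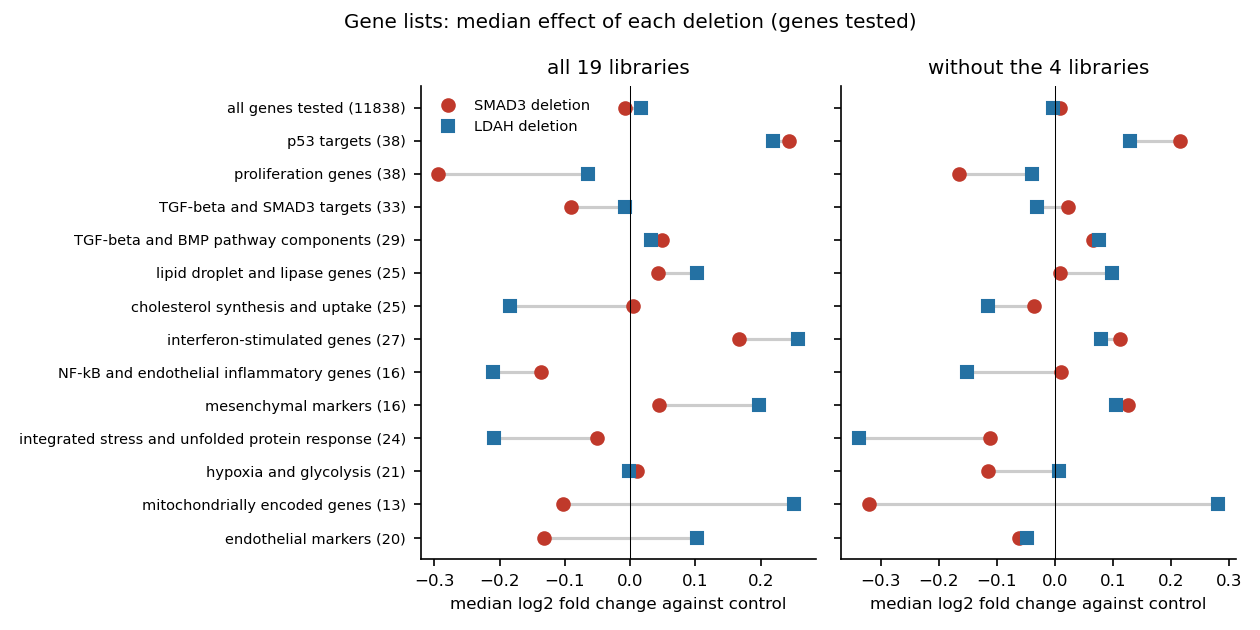
Median log2 fold change (x axis) of gene lists and of all genes tested (y axis), for the SMAD3 deletion (circles) and the LDAH deletion (squares), with all 19 libraries (left) and without the 4 that stand apart (right). With all 19 the p53 targets lie at 0.24 and 0.22, and the mitochondrially encoded genes at -0.10 and 0.25.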

How the data were processed

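Gene expression was measured in 27 teloHAEC libraries by QuantSeq 3' RNA-seq, read from a single end for 86 cycles per the labels. The authors deposited whole-number counts for 14008 genes, of which 0 sample columns were left unused. The build hg38 and edgeR 3.24.3 are named in the submitters' processing notes, while the aligner and the counter were not given there. From these counts edgeR 4.0.16 (R 4.3.3) computed TMM factors, the filterByExpr filter, a quasi-likelihood fit with 1 mean per group and adjusted p-values (Benjamini-Hochberg, all tested genes, threshold 0.05). The difference, both effects and their average came from 1 fit of the 19 libraries (11838 genes), and the HPRT reference from a fit of all 27. CPM are scaled by TMM factors, except the summed marker levels and the level that a count of 0 allows, which use library totals. An SE is the log2 fold change over the square root of F, and intervals use the t distribution. Target genes were compared on log2 CPM with a prior count of 2. A library stood apart if its median correlation with the libraries of its set lay more than 3 scaled median absolute deviations below the set's median. Common dispersion was 0.115 with all 19 libraries and 0.0359 without the 4. Fitted for each set alone it was 0.0451 (set A) and 0.163 (set B), or 0.0145 and 0.058 without the 4. With 3.43 to 7.49 M counts per library, a count of 0 allows up to 0.401 to 0.874 CPM (3 counts), which covers counting error only, since reads carry no molecular identifiers. No library was a copy of another, the lowest chi-square per degree of freedom within a group being 3.12. Replicate numbers in the labels pair no libraries. Alternatives were DESeq2 1.42.0, limma 3.58.1 voom with quality weights, a dispersion per set, DESeq2's size factors, no filter, a mean of at least 10 CPM, HPRT-targeted controls, all 27 libraries and leaving out each library. With a dispersion per set, the difference and the average combined the effects and SEs of separate edgeR fits. Their p-values came from the normal distribution, which ignores the residual degrees of freedom. The scripts were tested on simulated data. Genes were named with all 19 libraries and without the 4: the 3 targets, at a mean of at least 10 CPM up to 8 per direction by the p of the difference, up to 8 by the larger p of both effects and up to 6 by that of the average, and 2 per list by the p of the difference. EPHA2, TNFRSF12A, VEGFC, CDH5, ACTN4, PFN1, CDKN1A, FAS, AC011043.1, CRTC2 and PTP4A1 were chosen after their values were seen. Some genes that these rules name are not reported here. The members and lists were chosen with earlier results of these data known.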

Additional observations from a re-analysis of the deposited data

Results flagged for a closer look

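The 50 genes whose effects differed at an adjusted p under 0.05 in edgeR's quasi-likelihood test, without the 4 libraries that stand apart, are a difference between the deletions tested directly, and 0 passed with all 19 libraries. In 12 of the 112 groups of values examined for genes with printed library levels, 1 library lay far from the others of its group, by Dixon's test at 95%, where chance gives about 1 in 20. LDAH deletion replicate 4 was that library 6 times. It was the highest of its group in KLF2 (44.7 CPM), EPHA2 (46.5 CPM), CD9 (400.5 CPM), PPP4C (51.03 CPM) and ENSG00000263276 (5.70 CPM), and the lowest in ASCC3 (94.6 CPM). The first 5 of these genes were named because they passed the test of the difference with this library left out, which favours genes in which it lies apart, so the chance rate does not apply to them. SMAD3 deletion replicate 4 was the highest in CD70 (217 CPM) and MT-CO3 (3006 CPM). In the controls, CHST14 was highest in control A replicate 4 (54.7 CPM), MYC in control B replicate 4 (44.5 CPM) and MYL12B in control B replicate 7 (760.9 CPM), and COX6C was lowest in control B replicate 6 (182 CPM).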

How the results depend on the processing

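No paired analysis was possible because the labels' replicate numbers pair no libraries. Counts of genes at an adjusted p under 0.05 moved with the settings. The difference of effects, 0 with all 19 libraries, was 6 with DESeq2, 8 with a dispersion per set, 2 with limma voom, 50 without the 4 libraries and 0 to 4 with 1 library left out. Its 50 without the 4 became 99 with DESeq2, 150 with a dispersion per set, 7 with HPRT-targeted controls, and 7 to 160 with 1 library left out. The LDAH effect, 2, was 146 with DESeq2, 24 with limma voom, 9 with all 27 libraries in the fit, 0 with HPRT-targeted controls, 0 with a dispersion per set, 559 without the 4, and 0 (without any 1 of the control A libraries, SMAD3 deletion replicate 1, 2 or 3, LDAH deletion replicate 2, or control B replicate 1, 4 or 6) to 219 (without LDAH deletion replicate 4) with 1 left out. Its 559 became 218 with HPRT-targeted controls, 197 with a dispersion per set, 99 with limma voom and 206 to 672. The SMAD3 effect, 0, was 2 with DESeq2, 10 with limma voom and 0 to 0 with 1 left out. Without the 4 it was 10 with DESeq2, 4 with HPRT-targeted controls, 2 with a dispersion per set, 76 with limma voom, 1 with no filter and 0 to 1. The average, 1, was 20 with DESeq2, 0 with HPRT-targeted controls, 43 with a dispersion per set, 82 with limma voom, 278 without the 4 and 0 to 4, and the 278 became 500 with DESeq2, 93 with HPRT-targeted controls, 688 with a dispersion per set and 98 to 450. The HPRT difference, 0, was 2 with DESeq2, 1 without the 7 libraries of all 27 that stand apart, and 0 to 1. The SMAD3 level's difference ran from -0.536 to -0.3195 and that of LDAH from 0.3527 to 0.9357 with 1 library left out. Among named genes and lists, 3 values changed sign: with HPRT-targeted controls, for CDKN1A, average effects gave -0.01665 and for HCFC1, average effects gave 0.02003, and for PGK1, interaction values ran from -0.3453 to 0.01172 with 1 library left out, above 0 without LDAH deletion replicate 4. The cause was not tested. Depth limits genes near 0.874 CPM.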

Other observations

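PTP4A1, a protein tyrosine phosphatase of the prenylated PRL family, had 288 to 935 counts in all 12 libraries of set A and 0 counts in 14 of the 15 of set B, with 188 in control B replicate 4. It was among the 6 genes that DESeq2 called for the difference of effects with all 19 libraries and was not called by edgeR. AC011043.1 had 0 counts in 12 of the 15 libraries of set B and in 5 of the 12 of set A, and at most 21 counts in set A.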
